A study of Drosophila melanogaster with 9 samples.

Results

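The lysozyme genes LysB, LysC, LysD, LysE, LysP, LysS and LysX of Drosophila melanogaster were taken by gene name. They were chosen with earlier results of these data known. All 7 were found among the 10245 genes of the deposited tables. RNA had been sequenced from whole guts of adult Oregon R females, a common wild-type laboratory strain. There were 9 libraries, 3 from flies fed 10% glucose, 3 from flies fed agar and 3 from flies fed standard medium. The labels call the 3 libraries of a diet biological repeats and number them. The sources used here do not give the flies' age, their time on a diet or the number of guts per library.

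Lysozymes cut the sugar backbone of peptidoglycan, the polymer that gives bacterial cell walls their shape. The Lys genes encode secreted enzymes of the c-type family, to which chicken egg-white lysozyme also belongs. In flies, which eat yeast and bacteria with their food, LysB, LysC, LysD and LysE are known for expression in the midgut and are regarded as digestive enzymes. LysP is known from the adult salivary glands, LysS from the gastric caeca of the larva and LysX from the midgut of the metamorphosing animal.

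The genes lie side by side on chromosome arm 3L, in a span of 33.5 kb in the BDGP6.54 annotation. LysX, on the minus strand at 1194739 to 1195302, stands at the left end, 12.068 kb away from LysB. LysB (1207371 to 1207981, plus strand), LysC (1210485 to 1210726, plus strand), LysD (1210717 to 1211196, minus strand) and LysE (1212827 to 1213406, plus strand) fill 6.036 kb. LysC and LysD overlap by 10 bases on opposite strands. LysP (1218082 to 1218696, minus strand) and LysS (1227747 to 1228238, plus strand) follow to the right. That annotation calls LysC a pseudogene and the other 6 protein-coding. LysB, LysC, LysD and LysE are near-identical copies, so reads could be split among them in ways the deposited values do not show, and their summed level is given beside the single genes.

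Levels are RPKM, reads per kilobase of transcript, scaled to the size of the library. Each library held between 34899709 and 48389188 reads by the totals recovered from the values. Some libraries stood apart in ways that diet alone did not explain. Histone genes, 110 of them, had medians 3.98 and 3.32 log2 units above the middle library in standard medium 2 and 3, but lay at -0.19 in standard medium 1. Genes for cytosolic ribosomal proteins, 82 in number, lay lowest in agar 3, at -0.81, and at -0.50 and -0.53 in standard medium 2 and 3. The median difference of all tested genes was 0.25 on the log2(RPKM + 1) scale for glucose against standard medium and 0.28 for agar against standard medium, and -0.02 for glucose against agar, so single differences are to be read against those shifts.

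LysD was the most abundant member in every library, followed by LysB, LysE, LysC and LysX, in that order. LysD had 4490, 4971 and 3114 RPKM in the glucose libraries, 5707, 3474 and 1838 RPKM in the agar libraries, and 12218, 9270 and 9307 RPKM in the standard medium libraries. Every standard medium library lay above every library of the other diets, while glucose and agar overlapped. LysD averaged 4191 ± 964 RPKM on glucose, 3673 ± 1942 RPKM on agar and 10265 ± 1691 RPKM on standard medium (SD, n = 3 each).

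LysB, the second most abundant, had 1861, 2121 and 1264 RPKM on glucose, 2170, 1393 and 762 RPKM on agar, and 5559, 4647 and 3781 RPKM on standard medium. LysE had 592, 725 and 446 RPKM on glucose, 781, 445 and 265 RPKM on agar, and 1743, 1350 and 1207 RPKM on standard medium. Both genes repeated the pattern of LysD, with standard medium above and the other diets mixed. Agar 3 held the lowest level of LysB, LysD and LysE in the series.

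LysC had 314, 452 and 254 RPKM on glucose, 462, 251 and 84.1 RPKM on agar, and 1209, 607 and 658 RPKM on standard medium. Its lowest standard medium library still lay above the highest glucose and agar libraries, but its spread was wide, with a coefficient of variation of 71.3% on agar. Its reads did not come out whole at the 242 bases of the annotation used here, and 487 bases was the smallest length at which they did, so its RPKM appears to rest on another gene model. The plot of lysozyme levels by library shows all 7 genes.

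**Figure D1:**
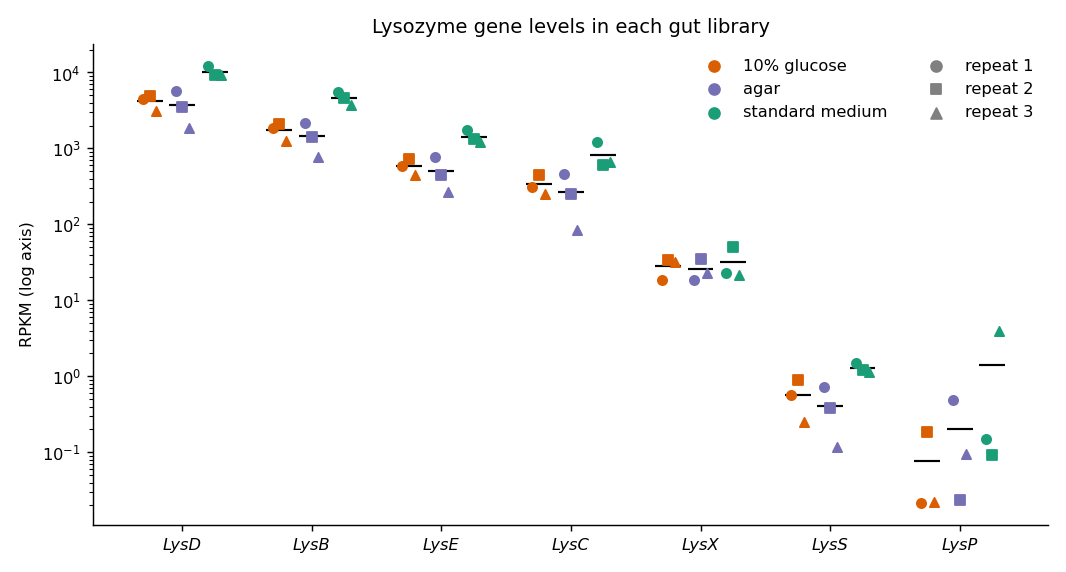
RPKM on a log axis of each lysozyme gene (columns) in each library, with the diets side by side, the repeat number as the marker shape and the mean as a bar. LysD, LysB, LysE, LysC and LysS have all 3 standard medium points on top, LysX has overlapping diets, and LysP is near 0 except in standard medium 3.

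LysX, unlike LysB to LysE, had overlapping levels on all diets. It had 18.6, 34.2 and 31.7 RPKM on glucose, 18.7, 35.1 and 23.0 RPKM on agar, and 22.7, 50.7 and 21.6 RPKM on standard medium. In each diet the library numbered 2 was the highest. The diets overlapped throughout, with means of 28.2 ± 8.42 RPKM on glucose, 25.6 ± 8.50 RPKM on agar and 31.7 ± 16.5 RPKM on standard medium (SD, n = 3 each). LysX rested on 396 to 1253 reads per library.

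LysS was low everywhere. It had 0.563, 0.898 and 0.247 RPKM on glucose, 0.723, 0.379 and 0.117 RPKM on agar, and 1.49, 1.23 and 1.12 RPKM on standard medium. These values stood on 2 to 35 reads per library. Only the standard medium libraries reached the 1 RPKM that the filter asked for in 3 libraries, so LysS could enter the tests only with standard medium on top, and its separation from the other diets is no support of its own.

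LysP, the salivary gland member, was at the edge of detection in all libraries but one. It had 0, 4 and 0 reads on glucose, 11, 0 and 2 reads on agar, and 4, 2 and 107 reads on standard medium. The 107 reads of standard medium 3 gave 3.95 RPKM, and no other library passed 0.493 RPKM. A count of 0 allows up to 3 reads, or 0.129 and 0.132 RPKM in glucose 1 and 3 and 0.140 RPKM in agar 2, counting error only. LysP failed the filter on low values and was not among the tested genes. With no filter it was called in no comparison (limma adjusted p of 0.272 to 0.991). Of the salivary gland markers looked for, sage and PH4alphaSG2 were found, and their summed level was 0.583 to 0.820 RPKM on glucose, 0.353 to 0.477 RPKM on agar and 0.458 to 0.540 RPKM on standard medium. Their part in the level of LysP was not tested.

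The summed level of LysB to LysE was 7257, 8269 and 5078 RPKM on glucose, 9120, 5563 and 2949 RPKM on agar, and 20729, 15874 and 14953 RPKM on standard medium. The mean was 6868 ± 1631 RPKM on glucose, 5877 ± 3097 RPKM on agar and 17185 ± 3103 RPKM on standard medium (SD, n = 3 each). The glucose mean was 0.40 times and the agar mean 0.34 times the standard medium mean. LysB to LysE together took 0.367%, 0.418% and 0.257% of the library's reads on glucose, 0.460%, 0.281% and 0.149% on agar, and 1.05%, 0.806% and 0.755% on standard medium. The LysB reads are approximate, since they did not all come out whole, and those of LysC rest on 487 bases. Reads shared among the copies may have been counted for more than 1 gene, so these need not be distinct reads. In whole guts, fewer lysozyme-producing cells and less lysozyme RNA per cell cannot be told apart.

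Differences between diets were tested with limma on log2(RPKM + 1) over 8036 genes, those that reached 1 RPKM in 3 or more libraries, among them 6 members. A member was called at a Benjamini-Hochberg adjusted p under 0.05 over all tested genes. The 3 comparisons share their libraries in pairs and are given side by side.

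On agar against standard medium, LysB, LysC, LysD, LysE and LysS fell and LysX did not pass the test. Leaving aside LysS, whose direction the filter fixed, these were 4 of the 5 other tested members, where 2.23% of all tested genes were called lower and 37.7% higher. LysB to LysE may share reads, so their 4 calls are not independent. LysB differed by -1.80 log2 units (SE 0.37, limma adjusted p = 0.00925), and LysD by -1.62 (SE 0.38, adjusted p = 0.0136). LysE differed by -1.65 (SE 0.37, adjusted p = 0.0118), and LysC by -1.87 (SE 0.56, adjusted p = 0.0304). The LysC call was lost after median-ratio scaling (adjusted p = 0.0617) and with only the 6 compared libraries in the fit (adjusted p = 0.0645). LysS differed by -0.72 (SE 0.19, adjusted p = 0.0198), on a scale that the added 1 RPKM compresses for so low a gene. LysX differed by -0.23, with a 95% interval of -1.08 to 0.61 and an adjusted p of 0.630. LysB to LysE did not overlap between the diets, as was the case for 2.71% of all tested genes in this direction.

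Without agar 3, the library with the lowest ribosomal protein genes, the 5 calls held, with LysB at -1.40 (adjusted p = 0.0137) and LysD at -1.19 (adjusted p = 0.0180). In standard medium 1 the median of the histone genes was not raised. With that library alone for its diet, the difference was -2.07 for LysB and -1.88 for LysD. That fit assumes that the lone library varies like the others. Under quantile normalization 2 members, LysE and LysS, were called, with 127 genes called lower in all, against 179 without it. Without agar 2 or without standard medium 1 there were 3, with 93 and 261 genes called lower.

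On glucose against standard medium, LysB, LysD and LysE fell, which made 3 of the 5 tested members other than LysS, where 0.896% of all tested genes were called lower and 21.3% higher. These 3 genes may share reads, so their calls are not independent. LysB differed by -1.43 log2 units (SE 0.37, limma adjusted p = 0.0308), LysD by -1.31 (SE 0.38, adjusted p = 0.0415) and LysE by -1.30 (SE 0.37, adjusted p = 0.0389). LysC, at -1.25 (SE 0.56, adjusted p = 0.119), and LysS, at -0.56 (SE 0.19, adjusted p = 0.0615), did not pass. LysX differed by -0.10, with a 95% interval of -0.94 to 0.74. LysB to LysE did not overlap between glucose and standard medium, as was the case for 2.64% of all tested genes in this direction.

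These 3 calls were close to the threshold. With the repeat number as a block, LysC (adjusted p = 0.0453) and LysS (adjusted p = 0.0190) were called lower as well, where 3.61% of all tested genes were. No member was called after median-ratio scaling (LysB at -1.75, adjusted p = 0.0703), where 0.635% of all tested genes were called lower, after quantile normalization (LysB at -0.67, adjusted p = 0.371), with standard medium 1 alone, or without any single glucose or standard medium library. Over all tested genes, lower calls numbered 28 after quantile normalization, 0 with standard medium 1 alone and 5 to 178 without 1 of those libraries, against 72 with all libraries and no further scaling. With the block and median-ratio scaling together, LysB (adjusted p = 0.0166), LysD (adjusted p = 0.0287) and LysE (adjusted p = 0.0261) were called. Without agar 2 only LysB was called, and without agar 3 there were 5.

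On glucose against agar, no member was called by limma, and none had an unadjusted p under 0.05, where 0.286% of all tested genes were called at the adjusted threshold and 10.5% had an unadjusted p under 0.05. The differences were 0.37 for LysB, 0.62 for LysC, 0.31 for LysD and 0.35 for LysE, with 95% intervals of -0.47 to 1.21, -0.65 to 1.90, -0.55 to 1.17 and -0.48 to 1.18. LysX differed by 0.13 and LysS by 0.16. The summed level of LysB to LysE on glucose was 0.796, 1.49 and 1.72 times that on agar in repeats 1, 2 and 3, so the direction was not the same in all repeats. Without agar 3, the difference turned to -0.025 for LysB, -0.043 for LysC, -0.12 for LysD and -0.033 for LysE.

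**Figure D2:**
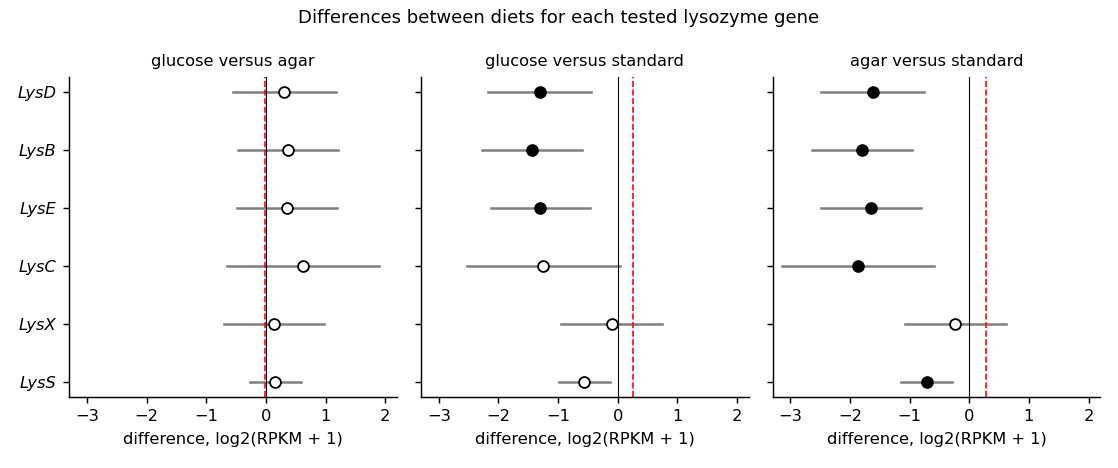
Difference between diet means on the log2(RPKM + 1) scale with its 95% interval for each tested lysozyme gene, one panel per comparison, first diet minus second. Filled points passed an adjusted p under 0.05, and the dashed line is the median of all 8036 tested genes. LysB, LysD and LysE are filled in both comparisons with standard medium, LysC and LysS only for agar, and none for glucose against agar.

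Although the summed level differed up to several fold between libraries, LysB, LysC, LysD and LysE kept nearly the same proportions. LysD made up 61.1% ± 0.895 of the sum on glucose, 62.4% ± 0.130 on agar and 59.9% ± 2.08 on standard medium (SD, n = 3 each). LysB made up 23.8% to 29.3% over the 9 libraries, LysE 8.0% to 9.0% and LysC 2.85% to 5.83%. The widest relative range was that of LysC, whose lowest share was in agar 3. Across the 9 libraries, the log2 levels of LysB, LysC, LysD and LysE correlated with Pearson r of 0.955 to 0.996, and with r of 0.95 to 0.98 with LysS, which had few reads. LysX correlated with these 5 at r of 0.04 to 0.12. The libraries share diets and repeat numbers, and LysB to LysE may share reads, so these values only describe the libraries.

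**Figure D3:**
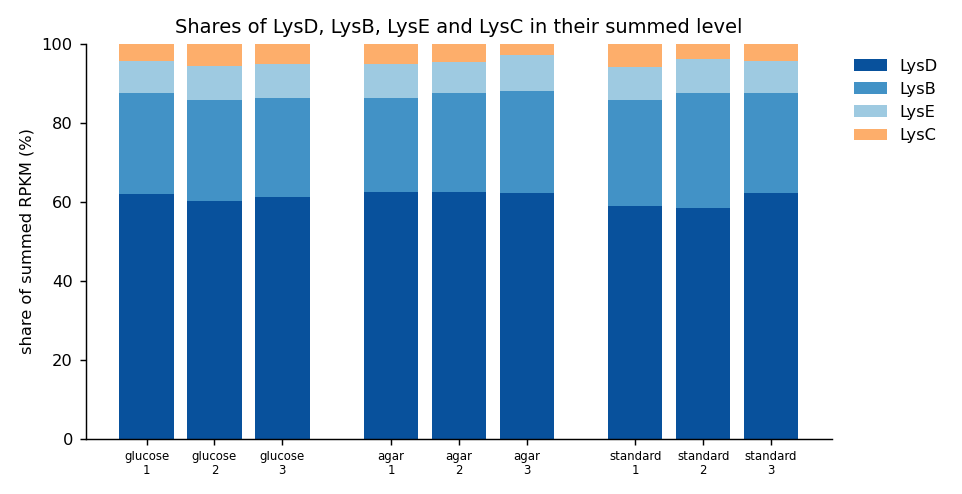
Share of LysD, LysB, LysE and LysC in their summed RPKM, in percent, for each library (bars), with the diets in blocks. LysD holds 58.4% to 62.6% and the blocks look alike across diets, with LysC smallest in agar 3.

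Another gene on the plus strand, mwh (multiple wing hairs), runs across most of the cluster and past its right end. It is known for its part in placing wing hairs. Introns of mwh hold LysB, LysC, LysD, LysE, LysP and LysS in BDGP6.54, although 1 of its 3 transcripts starts to the right of LysB, and none of its exons overlaps a lysozyme exon. The deposited mwh value had the highest correlation with the summed lysozyme level of the 2770 tested non-member genes with a mean of at least 10 RPKM (Pearson r = 0.999 over 9 libraries). It was 279, 337 and 200 RPKM on glucose, 351, 207 and 109 RPKM on agar, and 854, 634 and 562 RPKM on standard medium. Like LysB, it was lower on agar than on standard medium (-1.75, limma adjusted p = 0.0121) and lower on glucose than on standard medium (-1.34, adjusted p = 0.0429), the second not after median-ratio scaling (adjusted p = 0.0974).

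The mwh value was converted into reads with the lengths of its 3 transcripts in BDGP6.54 and set beside the reads of the plus-strand lysozyme genes inside each transcript (LysC, LysE and LysS in all, LysB in those that span it), as a geometric mean. This check was chosen after the values were seen. The LysB reads rest on the geometric mean of its 2 transcript lengths, 544.9 bases, and did not all come out whole, so they are approximate. The reads implied for mwh were 1.04, 1.03 and 1.02 times the plus-strand lysozyme reads on glucose, 1.03, 1.02 and 1.02 times on agar, and 1.02, 1.02 and 1.02 times on standard medium. With LysD and LysP of the minus strand added, the ratio was 0.318 to 0.354. In every library the reads credited to mwh nearly equalled those of the lysozymes of its strand, from which the level of mwh itself cannot be told apart.

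**Figure D4:**
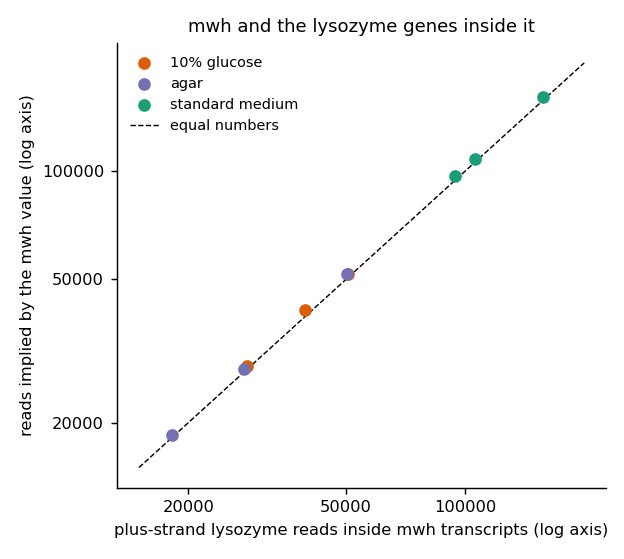
Reads implied by the mwh value against the plus-strand lysozyme reads inside its transcripts, both on log axes, one point per library, with a dashed line of equal numbers. All 9 points lie just above that line, from agar 3 at the low end to standard medium 1 at the high end, and 1 glucose point lies under an agar point.

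Other neighbours of the cluster differed from each other in direction. Of 15 non-member genes within 20 kb of the cluster, 10 were tested. On agar against standard medium, mwh and CG13912 (-0.81, limma adjusted p = 0.0421) were called lower, 2 of 10 where 2.23% of all tested genes were. The mwh value could not be told apart from the plus-strand lysozyme reads, so mwh is no separate neighbour here. CG32335, CG9119 and CG33966 were called higher, by 1.19 (adjusted p = 0.00432), 1.07 (adjusted p = 0.0296) and 0.69 (adjusted p = 0.0346), 3 of 10 where 37.7% of all tested genes were higher. After median-ratio scaling CG32335 was still called higher, at 1.06 (adjusted p = 0.0105), while CG9119 at 0.74, CG33966 at 0.34 and CG13912 at -1.15 were not called. CG32335 lay between 0.198 and 2.65 RPKM, near the level of the filter, which may have let it in through the diets where it was high. On glucose against standard medium mwh was the only neighbour called, lower, where 0.896% of all tested genes were called lower. On glucose against agar there was 0, where 0.286% of all tested genes were called. CG32335 and CG9119 lie between LysX and LysB on the minus strand.

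**Figure D5:**
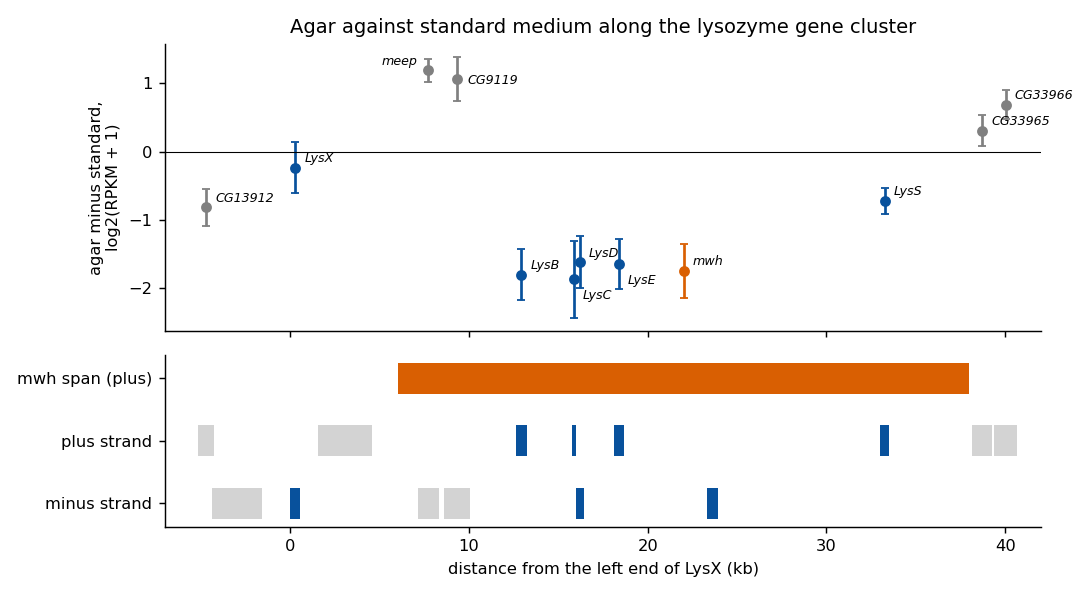
Top, agar minus standard medium on the log2(RPKM + 1) scale with its SE for each tested gene, against distance from the left end of LysX in kb (lysozymes in blue, mwh in orange, others in grey). Bottom, the genes of the same stretch by strand. LysB, LysC, LysD and LysE sit at -1.87 to -1.62 with LysS at -0.72, LysX at -0.23, and CG32335 (named meep in the annotation) and CG9119 above 1.

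Outside the cluster, the gene most like the lysozymes in its levels was Jon65Aiii, a serine protease of the Jonah family of digestive enzymes (Pearson r = 0.992 with the summed level over 9 libraries). It averaged 5877 ± 646 RPKM on glucose, 4890 ± 1346 RPKM on agar and 9876 ± 1232 RPKM on standard medium (SD, n = 3 each). It was lower on agar than on standard medium by limma (-1.04, adjusted p = 0.0103) and on glucose than on standard medium (-0.75, adjusted p = 0.0433). Quantile normalization left these differences at -0.30 (adjusted p = 0.358) and -0.38 (adjusted p = 0.331). Next came His1:CG33804, His1:CG33837 and His1:CG33840, copies of the histone H1 gene whose values were identical (r = 0.987). For LysC, Jon99Ciii (r = 0.994), Jon99Cii (0.993) and Jon65Aiv (0.983) ranked highest. For LysX, no gene was above r = 0.659, which was that of TpnC47D, followed by CR40469 (0.636) and Ctr1B (0.631).

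Of the other c-type lysozyme genes looked for, 4 of 6 were found and 2 tested. CG16756 was higher than on standard medium on glucose (0.73, limma adjusted p = 0.0209) and on agar (0.66, adjusted p = 0.0133), and was not called after median-ratio scaling (0.62, adjusted p = 0.103, and 0.54, adjusted p = 0.0815). It reached 1 RPKM in no standard medium library and so passed the filter through the other diets. CG16799 differed by -0.29 on agar against standard medium (adjusted p = 0.0568). It was called lower there with the replicate block (-0.29, adjusted p = 0.0157) and after that scaling (-0.60, adjusted p = 0.0132). CG8492 and CG30062 stayed under 0.4 RPKM and were not tested.

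All 5 i-type lysozyme genes were found and 2 were tested. CG6421 was higher on agar than on standard medium (0.59, limma adjusted p = 0.0146) but not called after median-ratio scaling (0.38, adjusted p = 0.146). CG6426 differed by 0.11 (adjusted p = 0.662). With the replicate block both were called higher on glucose than on standard medium, CG6421 by 0.43 (adjusted p = 0.0281) and CG6426 by 0.31 (adjusted p = 0.0402). CG6429, CG6435 and CG14823 were below the filter, at under 1 RPKM.

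The amidase peptidoglycan recognition proteins cleave peptidoglycan at its peptide stems and are known to dampen the Imd immune pathway. Of 5 such genes 4 were tested, and 0 were called in any comparison. PGRP-SC2, the most abundant, had 554, 740 and 465 RPKM on glucose, 844, 823 and 521 RPKM on agar, and 1011, 650 and 787 RPKM on standard medium, and its difference was -0.17 for agar against standard medium (adjusted p = 0.618). PGRP-SC1a ranged from 3.40 RPKM in agar 3 to 106 RPKM in glucose 2, and its near copy PGRP-SC1b followed it between the same libraries, from 2.43 to 72.3 RPKM. PGRP-LB lay between 8.02 and 18.4 RPKM. PGRP-SB1 was below the filter.

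Of the receptors and regulators of the Imd pathway, 7 of 9 were tested. On agar against standard medium 3 of the 7 were called higher, where 37.7% of all tested genes were. Among them were imd (0.43, limma adjusted p = 0.00778) and PGRP-LE (0.36, adjusted p = 0.0343). The median was 0.31 over the list, against 0.28 over all tested genes. None of the 3 was called after median-ratio scaling. Of 17 antimicrobial peptide genes looked for, 5 were found and 4 tested. Def, which encodes defensin, was lower on glucose than on standard medium (-0.84, adjusted p = 0.0301, and 0.0585 after median-ratio scaling) and on agar than on standard medium (-1.47, adjusted p = 0.00471). Its levels were 1.09, 2.75 and 3.01 RPKM on glucose, 1.16, 1.04 and 0.951 RPKM on agar, and 4.84, 4.66 and 4.50 RPKM on standard medium. Drsl3, a drosomycin-like gene, was higher on glucose than on standard medium (0.97, adjusted p = 0.0415) and was not called after median-ratio scaling (0.79, adjusted p = 0.184). With 0.660, 0.982 and 0.910 RPKM on standard medium, Drsl3 passed the filter only through the other diets, so its direction is no support of its own.

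Markers of gut cells were present. The enterocyte marker mex1 lay between 95.5 and 153 RPKM. It was higher than on standard medium on glucose (0.50, limma adjusted p = 0.0338) and on agar (0.48, adjusted p = 0.0236). Summed over the 7 enterocyte markers, all tested, levels were 14087 to 17159 RPKM on glucose, 8952 to 18862 RPKM on agar and 14836 to 21150 RPKM on standard medium. Most of that sum was alphaTry and betaTry. On each of glucose and agar against standard medium, 2 markers, mex1 and nub, were called higher and 1, Jon25Bii, lower. Over all tested genes, 21.3% were called higher and 0.896% lower on glucose, and 37.7% and 2.23% on agar. Muscle markers, which come with the gut wall, summed to 194 to 297 RPKM on glucose, 201 to 289 RPKM on agar and 223 to 306 RPKM on standard medium, and 0 of 4 were called. The progenitor marker esg was higher than on standard medium on glucose (0.54, limma adjusted p = 0.0171) and on agar (0.52, adjusted p = 0.00644). The progenitor markers found, esg and Dl, summed to 5.99 to 6.22 RPKM on glucose, 5.36 to 6.71 RPKM on agar and 3.65 to 4.29 RPKM on standard medium, where no standard medium library reached the others. The enteroendocrine marker Tk was also higher on glucose (0.52, adjusted p = 0.0306) and on agar (0.43, adjusted p = 0.0326), while Dh31, the other such marker tested, differed by 0.09 and 0.20 and was not called. Dh31 lay between 4522 and 6092 RPKM, far above Tk at 16.8 to 30.3 RPKM, and the source of its reads was not tested. After median-ratio scaling, esg at 0.28 on glucose and 0.23 on agar, and Tk at 0.21 and 0.09 in the same order, were not called. Haemocyte markers summed to at most 0.346 RPKM. The markers' part in the lysozyme differences was not tested.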

How the data were processed

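The deposited values are log2 RPKM per gene and library, calculated by the authors. They have the form log2((reads + 0.5) / (library total + 1) / length), averaged on the log scale over a gene's transcripts, as read from the values. The labels' protocols name a stranded TruSeq mRNA kit. CASAVA 1.82, Bowtie2 2.1 and limma are named in the submitters' processing notes. The build, gene models and strand setting of the counting: not given in the sources used here.

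RPKM was 2 to the power of the deposited value. With limma 3.58.1 (R 4.3.3), log2(RPKM + 1) was fitted for the 8036 genes that reached 1 RPKM in 3 or more libraries, with 1 mean per diet over all 9 libraries, eBayes with trend and Benjamini-Hochberg adjustment. The procedure was tested on simulated data, where it called 78.7% to 83.3% of 2-fold changes. The simulation held no repeat pairing, no shift between diets over all genes and no libraries that stand apart, so it does not cover those features. Reads were recovered with BDGP6.54 transcript lengths, which gave whole reads (within 1e-06) for 61.3% to 61.8% of 3317 single-transcript genes. Coordinates come from that annotation.

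The 9 pairs of libraries with the same repeat number in different diets had deviations that correlated at r of 0.17 to 0.59. The other 18 pairs had r of -0.53 to 0.29, so the ranges overlap. Deviations were taken from each diet's mean, so positive values in same-numbered pairs go with negative ones in the others. The numbers may pair the samples, which the labels do not state. The main fit left them out, and the replicate block used them. p-values measure the spread between these libraries. The members and gene lists were chosen with earlier results of these data known. Genes named are all 7 members, the 5 non-member genes most correlated with their sum and the 3 most correlated with each tested member, all genes of the other lysozyme and amidase lists, and in the remaining lists the 2 with the smallest adjusted p where any was called. mwh, the cluster neighbours, nub, alphaTry and betaTry, beyond that rule, were chosen after their values were seen.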

Additional observations from a re-analysis of the deposited data

How the results depend on the processing

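With pseudocounts of 0.1 and 5, no filter, a filter of 5 RPKM, other scalings, the replicate block, only the compared libraries or the deposited log2 values, LysB to LysE stayed lower than on standard medium on both other diets. The sizes and the calls depended on the setting, and the cause was not tested.
On agar against standard medium 5 members were called, 2 after quantile normalization and 3 to 5 leaving out 1 library. The counts of 5 and 2 include LysS, whose direction the filter fixed. Over all tested genes, lower calls numbered 179, 127 and 93 to 261 in the same order. After quantile normalization LysB was at -1.17, LysC at -1.87 and LysD at -0.98. With standard medium 1 alone, LysB was at -2.07, LysC at -2.49, LysD at -1.88, LysE at -1.94, LysS at -0.85 and LysX at 0.12. LysC was also not called after median-ratio scaling (-2.23) or with only the 6 compared libraries (-1.87). Leaving out 1 library, LysC ranged from -2.42 to -1.20, LysS from -0.87 to -0.56 and LysX from -0.48 to 0.15.
On glucose against standard medium 3 members were called, and 0 after median-ratio scaling or quantile normalization. There were 5 with only the 6 compared libraries, 5 with the replicate block and 0 to 5 leaving out 1 library. Each count of 5 includes LysS. Over all tested genes, lower calls numbered 72, then 51, 28, 111, 290 and 5 to 178 in the same order. After median-ratio scaling, quantile normalization and with standard medium 1 alone, LysB was at -1.75, -0.67 and -1.70. In that order LysD was at -1.63, -0.88 and -1.57, and LysE at -1.61, -1.23 and -1.59. LysD with no filter (-1.31) missed the threshold. LysC, at -1.25, passed with the 6 libraries or the block, and LysS passed with these (-0.56), with a pseudocount of 5 (-0.17) and with the block and median-ratio scaling together (-0.72). LysX was at 0.25 with standard medium 1 alone. Leaving out 1 library, LysB ranged from -1.59 to -1.21, LysC from -1.47 to -0.93, LysD from -1.44 to -1.11, LysE from -1.46 to -1.11, LysS from -0.71 to -0.40 and LysX from -0.31 to 0.29.
On glucose against agar 0 members were called under every setting run, the replicate block included. Leaving out 1 library, LysB ranged from -0.025 to 0.73, LysC from -0.043 to 1.18, LysD from -0.12 to 0.70, LysE from -0.033 to 0.74 and LysX from -0.060 to 0.40.
The standard medium sum of all 7 members was 13520 RPKM, and that of LysB to LysE 13484 RPKM, after quantile normalization. The block changed no other call of a lysozyme member. Of the listed genes it added calls for imd, PGRP-LC and Rel on glucose and for Rel and Drsl3 on agar, all higher than on standard medium, beside those in the report. With the block, 42.1% of all tested genes were called higher on glucose and 51% on agar. With 3 libraries per diet, LysS and LysP are limited by few reads.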
